A study of Arabidopsis thaliana with 6 samples.

Results

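GI, the pseudo-response regulator genes PRR9, PRR7, PRR5, PRR3 and TOC1, and the coactivator genes LNK1, LNK2, LNK3 and LNK4 form much of the daytime and evening part of the plant circadian clock. These 10 genes were followed in root tips of Arabidopsis thaliana. They were chosen by locus from the 37336 gene identifiers of the count files, with earlier results of these same libraries known, in which GI, PRR9, PRR7, PRR5, LNK1 and LNK2 were lower in hsl2. The contrast of hsl2 with wild type is therefore given for them as a description, without p-values. The genotypes compared, with 3 libraries each, were the hsl2 mutant in the Col-0 background and the Col-0 wild type. HSL2 codes for a HAESA-like receptor kinase, and the series asks what its mutation does to the shedding of the root cap. In both genotypes total RNA was taken from the last 0.5 mm of the primary root of seedlings aged 7 days. They had grown on upright sucrose-free plates in long days, with 16 h light and 8 h dark. The labels give neither the hsl2 allele nor the hour of harvest, and do not say whether replicate libraries are separate cultures.

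In the textbook clock of Arabidopsis leaves, the morning MYB proteins CCA1 and LHY repress evening genes, and the pseudo-response regulators in turn repress CCA1 and LHY in a wave that runs from PRR9 through PRR7 and PRR5 to TOC1. LNK proteins bind REVEILLE proteins such as RVE8 and help them to activate PRR5 and TOC1. GI stabilises the blue-light F-box protein ZTL, which targets TOC1 and PRR5 for breakdown. Transcripts of these genes cycle over the day, so their level depends on the hour at which a tissue is taken. Roots have a clock of their own that is coupled to the shoot.

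Short sequence elements near the start of these genes are known to link them. The evening element is bound by CCA1, LHY and RVE8, and the G-box by several light and clock regulators. They were searched on both strands of the window from 250 bases before the annotated start of a gene to 50 bases from that start on, in the RefSeq annotation of TAIR10.1. The genome build behind the counts is not given, so positions refer to that reference alone and were not joined to coordinates of the authors. The evening element (AAAATATCT) occurred in 3 of the 10 windows, those of PRR9, PRR5 and TOC1, against 2.82% of the windows of 27443 protein-coding genes. The G-box (CACGTG) occurred in 5 of the 10, those of PRR9, PRR7, LNK1, LNK2 and LNK3, against 7.68% of all windows. The CCA1 binding site (AAAAATCT) occurred in 1 of the 10, that of PRR5, against 7.88%. Of the windows of 22 other core clock genes, 9 (40.9%) held a G-box, 4 (18.2%) an evening element and 4 (18.2%) a CCA1 binding site. The windows of GI, PRR3 and LNK4 held none of these letters. The matches are descriptions of letters and not of binding. One stretch per gene and element is shown 5′ to 3′ on the strand of the gene, with the element in capitals. All 3 evening elements and the CCA1 binding site lie on the opposite strand and read AGATATTTT and AGATTTTT here.
PRR9 evening element, chr2:19232623-19232651, plus strand: ttctctgagaAGATATTTTcgtggttgtg
PRR5 evening element, chr5:8358715-8358743, minus strand: gattttttctAGATATTTTcttttctcca
TOC1 evening element, chr5:24674802-24674830, plus strand: aaatatcatgAGATATTTTctccaagatg
PRR5 CCA1 binding site, chr5:8358727-8358754, minus strand: aacattcgctAGATTTTTtctagatatt
PRR9 G-box, chr2:19232425-19232450, plus strand: aggttaatgaCACGTGttaaggtgga
PRR7 G-box, chr5:642216-642241, minus strand: cccaccattaCACGTGtcagttcaaa
LNK1 G-box, chr5:25676810-25676835, minus strand: atttagttgcCACGTGttgatatcat
LNK2 G-box, chr3:20179031-20179056, minus strand: actcgtttggCACGTGaccatttcat
LNK3 G-box, chr3:3923334-3923359, plus strand: aatcacatgcCACGTGtcttattctc
The evening elements of PRR5 and TOC1 end 179 and 143 bases before the gene start. That of PRR9 begins 27 bases into the transcript. The gene model of PRR5 holds coding exons only (1677 bases), so its start is the start of the coding sequence.

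Total counts ran from 15051468 to 19353957 in the hsl2 libraries and from 15791819 to 20468890 in the wild type libraries. A count of 3 corresponded to 0.148 to 0.213 CPM, depending on the library (counts scaled to a common library size, TMM-adjusted). A limit of that kind covers counting error only. All 10 genes passed the filter on low counts, which kept 17989 genes. HSL2 itself was at 7.61, 9.76 and 9.81 CPM in hsl2 1, 2 and 3, against 6.98, 8.61 and 7.22 CPM in wild type 1, 2 and 3, so its transcript level does not separate the genotypes. Marker lists were summed in each library as a rough description of the tips. The 8 green tissue markers summed to 90.9 CPM in hsl2 1 and to 27.4 and 30.6 CPM in hsl2 2 and 3, against 23.5 to 39.8 CPM in wild type. Most of the sum in hsl2 1 came from LHCB1.3, at 40.4 CPM, and RBCS1A, at 16.7 CPM. RCA and LHCB4.1 in hsl2 1 lay within the wild type range, and the other green tissue markers above it. The 7 root hair markers summed to 51.7 to 66.3 CPM in hsl2, against 30.4, 34.6 and 56.4 CPM in wild type 1, 2 and 3. The 7 root tip and root cap markers summed to 92.1, 137.2 and 149.7 CPM in hsl2 1, 2 and 3, against 170.2, 169.2 and 133.03 CPM in wild type 1, 2 and 3. All 7 root tip and root cap markers were detected in every library. By these sums hsl2 1 and wild type 3 stand apart from the other libraries of their genotype, and results are also given without them. The part of these tissues in the results below was not tested. In these bulk samples, fewer cells of a type and less RNA per cell cannot be told apart.

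TOC1, the evening member, had the most transcript per length in both genotypes. It was at 25.2 ± 1.80 CPM per kb of annotated exon in hsl2 and 29.3 ± 3.63 CPM per kb in wild type (SD, n = 3 each). This wild type level lay above that of 78.1% of the genes tested. GI was at 7.63 ± 0.929 CPM per kb in hsl2 and 18.1 ± 3.50 CPM per kb in wild type, and PRR5 at 9.10 ± 2.07 and 16.9 ± 1.51 CPM per kb in hsl2 and wild type (SD, n = 3 each). GI and PRR5 overlapped in each genotype, and the coding-only model of PRR5 shortens the length by which it is divided.

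LNK1, PRR7 and LNK2 formed a middle group in wild type, at 8.18 ± 4.13, 7.17 ± 1.84 and 5.93 ± 4.27 CPM per kb (SD, n = 3). Their libraries overlapped one another, and those of LNK2 also reached down to PRR3, at 2.93 ± 0.412 CPM per kb. LNK3, PRR9 and LNK4 were lowest, at 1.29 ± 0.578, 1.16 ± 0.618 and 0.830 ± 0.670 CPM per kb in wild type, and did not differ beyond their spread. In hsl2 the order was close to this one: PRR5 stood above GI and PRR3 above LNK2, and the other ranks were unchanged. All 4 PRR genes other than TOC1 were thus spread over the range, from PRR5 near the top to PRR9 at the bottom.

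**Figure D1:**
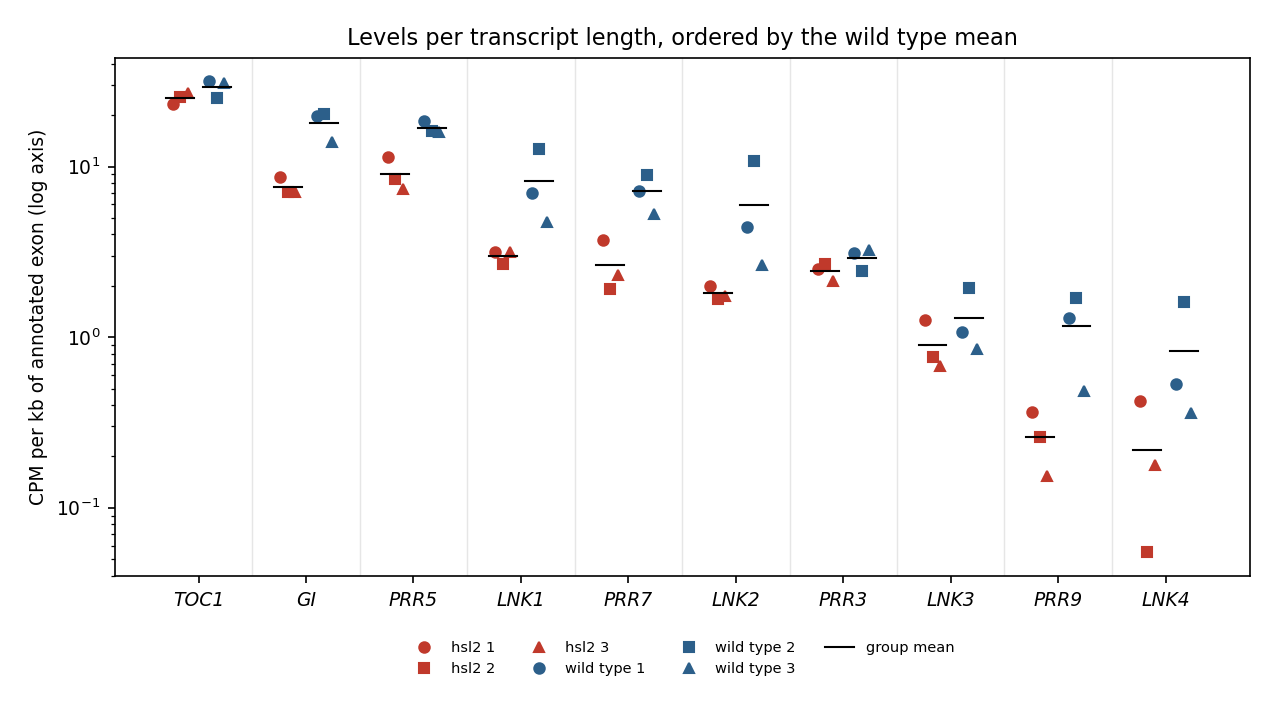
Level of the 10 genes per length (CPM per kb of annotated exon, log axis) in each library, hsl2 in red at left and wild type in blue at right of each gene, with the group mean as a line. TOC1 is highest in both genotypes, at a mean of 25.2 CPM per kb in hsl2 and 29.3 in wild type, and LNK4 is lowest.

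Against wild type, hsl2 tips held less transcript of GI, PRR9, PRR7, PRR5, LNK1 and LNK2, from 1.86-fold less for PRR5 to 4.44-fold less for PRR9. For these 6 of the 10 genes every hsl2 library lay below every wild type library, and for 0 of the 10 every hsl2 library lay above. Over all genes tested the shares were 9.44% below and 11.3% above. Since this contrast chose the genes, nothing is read from their count. The median log2 fold change of the 10 genes was -1.34, beside 0.01 over all 17989 genes tested. With edgeR's quasi-likelihood test 0 of these 17989 genes, 0%, passed an adjusted p of 0.05 over all genes. Without adjustment 1081 lower and 1355 higher genes had p under 0.05. DESeq2 called 292 genes, 1.62%, and limma-voom 0.

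GI (AT1G22770, chromosome 1, 8061751 to 8067790, plus strand of TAIR10.1), the large nuclear protein that ties the clock to day length, had 526, 604 and 466 counts in hsl2 1, 2 and 3, against 1740, 1416 and 994 counts in wild type 1, 2 and 3. These were 37.4, 30.5 and 30.5 CPM in hsl2, against 85.6, 87.1 and 60.3 CPM in wild type. The groups did not overlap, and the lowest wild type library, wild type 3, was still well above the highest hsl2 library, hsl2 1. The log2 fold change was -1.24 with a standard error of 0.17, a level 2.37-fold lower in hsl2. It was -1.50 without hsl2 1 and wild type 3, and lay between -1.50 and -1.15 over 14 other settings. No annotated gene overlaps GI.

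**Figure D2:**
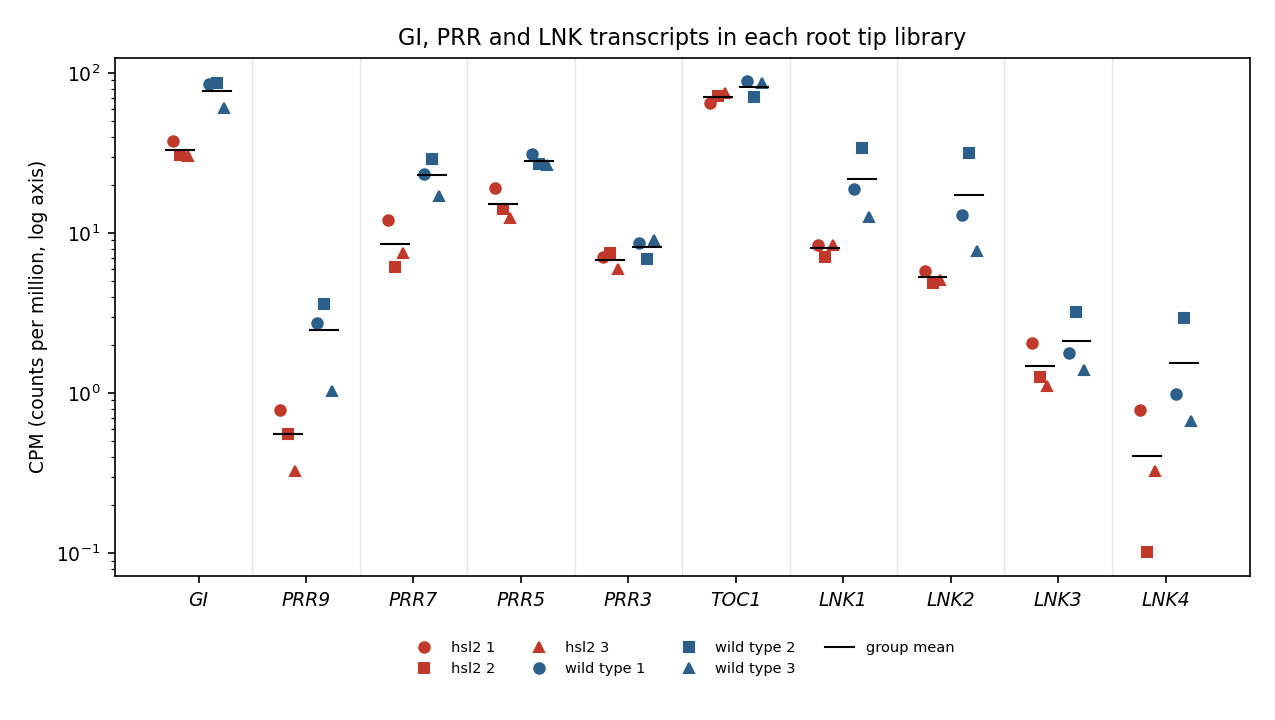
CPM of the 10 genes in each library (log axis), hsl2 in red at left and wild type in blue at right of each gene, with the group mean as a line. GI, PRR9, PRR7, PRR5, LNK1 and LNK2 lie lower in every hsl2 library than in every wild type library, while PRR3, TOC1, LNK3 and LNK4 overlap.

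Among the pseudo-response regulators, the difference was largest for the morning member PRR9 and smallest for the evening member TOC1, a ranking that was not tested. PRR9 (AT2G46790, chr2:19232607-19235179, plus strand), the morning repressor of CCA1 and LHY, was rare: it had 11, 11 and 5 counts in hsl2 1, 2 and 3, against 56, 59 and 17 counts in wild type 1, 2 and 3. These counts gave 0.783, 0.556 and 0.327 CPM in hsl2, against 2.75, 3.63 and 1.03 CPM in wild type. The groups did not overlap, but wild type 3 lay closer to hsl2 1 than to the other wild type libraries. The log2 fold change was -2.15 with a standard error of 0.52, and -2.79 without hsl2 1 and wild type 3.

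PRR7 (AT5G02810, chr5:637681-642030, minus strand), which follows PRR9 and is known to take part in the response of the clock to sugar, was at 12.03, 6.17 and 7.52 CPM in hsl2 1, 2 and 3, against 23.4, 29.0 and 17.1 CPM in wild type 1, 2 and 3. Every hsl2 library was lower, with hsl2 1 nearest to wild type. The log2 fold change was -1.44 with a standard error of 0.27, or -1.94 without hsl2 1 and wild type 3. PRR5 (AT5G24470, chr5:8356204-8358546, minus strand), the afternoon regulator, was at 19.1, 14.2 and 12.4 CPM in hsl2, against 31.2, 27.1 and 26.6 CPM in wild type. Its wild type libraries agreed within 1.17-fold, the narrowest wild type range of the 10 genes. The log2 fold change was -0.89 with a standard error of 0.18.

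PRR3 (AT5G60100, chr5:24197971-24201415, minus strand), whose protein is known to protect TOC1 from ZTL, was at 7.05, 7.48 and 5.95 CPM in hsl2, against 8.70, 6.89 and 9.04 CPM in wild type. TOC1 (AT5G61380, chr5:24674963-24678550, plus strand), which represses CCA1 and LHY at night, was at 65.4, 71.8 and 75.4 CPM in hsl2, against 89.0, 70.5 and 87.2 CPM in wild type. Both overlapped between genotypes, with wild type 2 below the highest hsl2 library for each. Their log2 fold changes were -0.27 and -0.21, with standard errors of 0.19 and 0.14. In counts within a library, which need no scaling between libraries, GI had 0.572, 0.425 and 0.405 reads per TOC1 read in hsl2 1, 2 and 3, against 0.962, 1.24 and 0.692 in wild type 1, 2 and 3. PRR3 had 0.108, 0.104 and 0.0790 reads per TOC1 read in hsl2, against 0.0978, 0.0978 and 0.104 in wild type. The ratio of GI to TOC1 thus kept the genotypes apart, and that of PRR3 to TOC1 did not. PRR9 and LNK2, apart in CPM, overlapped as ratios. They had 0.0120 and 0.0892 reads per TOC1 read in hsl2 1, against 0.0118 and 0.0884 in wild type 3. PRR7, PRR5 and LNK1 stayed apart more narrowly than GI. Their ratios were 0.184, 0.293 and 0.129 in hsl2 1, against 0.196, 0.305 and 0.145 in wild type 3. LNK3 and LNK4 overlapped, as in CPM.

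The LNK coactivators were lower on average in hsl2, and LNK1, LNK2 and LNK4 varied widely within wild type. LNK1 (AT5G64170, chr5:25672466-25676823, minus strand) was at 8.47, 7.13 and 8.44 CPM in hsl2, against 18.8, 34.03 and 12.6 CPM in wild type. LNK2 (AT3G54500, chr3:20175370-20179070, minus strand) was at 5.84, 4.90 and 5.10 CPM in hsl2, against 12.9, 31.4 and 7.71 CPM in wild type. The hsl2 libraries of LNK1 and LNK2 each lay within 1.19-fold of one another, whereas their wild type libraries spanned 2.70-fold and 4.08-fold. The log2 fold changes were -1.45 with a standard error of 0.31 for LNK1 and -1.71 with a standard error of 0.43 for LNK2. Wild type 2 carried much of this: without it they were -0.98 for LNK1 and -0.97 for LNK2.

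LNK3 (AT3G12320, chr3:3923515-3925502, plus strand) and LNK4 (AT5G06980, chr5:2167120-2169437, plus strand), relatives of LNK1 and LNK2, had few reads. LNK3 had 29, 25 and 17 counts in hsl2 1, 2 and 3, against 36, 52 and 23 counts in wild type 1, 2 and 3. LNK4 had 11, 2 and 5 counts in hsl2, against 20, 48 and 11 counts in wild type. The genotypes overlapped for both genes, and the single highest library was wild type 2 each time. The log2 fold change of LNK3 was -0.52 with a standard error of 0.40, and -0.11 without wild type 2. That of LNK4 was -1.98 with a standard error of 0.73, -1.12 without wild type 2, and -3.21 without hsl2 1 and wild type 3.

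The strand setting of the counting is not given, and 4 of the 10 genes overlap a neighbour in the annotation: LNK1, LNK2, LNK3 and LNK4. AT5G64160, on the strand opposite to LNK1, was at 43.5 ± 7.46 CPM in hsl2 and 36.9 ± 3.16 CPM in wild type, and AT3G12340, opposite to LNK3, at 37.1 ± 2.31 and 34.9 ± 6.08 CPM in hsl2 and wild type (SD, n = 3 each). Both neighbours were thus more abundant than the LNK gene they overlap, and neither had its highest value in wild type 2. How many reads such pairs share was not tested, so the LNK1 and LNK3 values are uncertain. The neighbours of LNK2 had at most 4 counts in a library. That of LNK4, AT5G06990, lies on the same strand as LNK4, so counting by strand would not separate this pair. It had at most 16 counts, about as few as LNK4 itself in hsl2, so LNK4 is uncertain too.

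Within wild type, the 10 genes differed in where wild type 2 stood. Wild type 2 is part of the wild type mean in the contrast that chose the genes, so the counts here are not independent of that choice, and the order was noticed in these data. They are given as a description. Wild type 2 was the highest wild type library for 7 of the 10, against 36.1% of all genes tested. LNK1, LNK2, LNK3 and LNK4 stood more than 1.5-fold above both other wild type libraries there, 4 of the 10, against 2.43% of all genes tested. PRR9 and PRR7 were 1.32-fold and 1.24-fold above the next library, and GI 1.02-fold. PRR5 had wild type 2 in the middle. PRR3 and TOC1 were lowest in wild type 2, 1.26-fold and 1.24-fold below the next library.

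Clock genes outside the 10 also differed in this. Wild type 2 was highest for 3 of the 20 other core clock genes tested: the morning gene RVE8, which partners the LNK proteins, was at 3.38 CPM there and at 0.688 and 0.607 CPM in wild type 1 and 3. CCA1 had 37 counts in wild type 2, and 13 and 2 counts in wild type 1 and 3. LHY had 40 counts in wild type 2, and 17 and 5 counts in wild type 1 and 3. For 15 of the 20 wild type 2 was instead the lowest, against 33.7% of all genes tested, but 2 of the 20 lay more than 1.5-fold below both others, RVE1 and RVE2, against 2.62% of all genes tested. The evening genes ELF4 and FKF1 were 1.43-fold and 1.41-fold below the next library, and LUX and BOA 1.08-fold and 1.04-fold. It was also lowest for 9 of the 11 clock outputs and targets tested, and more than 1.5-fold below both others for 5 of them. The cold-regulated clock gene COR27 was at 2.83 CPM in wild type 2, against 8.65 and 12.02 CPM in wild type 1 and 3. The CCA1, LHY and REVEILLE genes had no common order. All REVEILLE genes tested except RVE8, which are relatives of CCA1 and LHY, were lowest in wild type 2, unlike CCA1, LHY and RVE8. These were RVE1, RVE2 and RVE7, and more narrowly RVE4, RVE5 and RVE6, at 1.08-fold, 1.02-fold and 1.18-fold below the next library. The green tissue and root hair sums of wild type 2 (23.5 and 34.6 CPM) were near those of wild type 1. The hour of harvest of each library is not known, and its part in these differences was not tested.

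In hsl2, LNK1, LNK2 and RVE8 differed less across the libraries than in wild type, and so did GI, PRR9, PRR3, TOC1 and LNK3. PRR7, PRR5 and LNK4 differed more: their libraries spanned 1.95-fold, 1.54-fold and 7.74-fold in hsl2, against 1.69-fold, 1.17-fold and 4.42-fold in wild type. Over all genes tested the median log2 range was 0.409 in hsl2 and 0.338 in wild type. CCA1 had 4, 4 and 14 counts and LHY 5, 13 and 18 counts in hsl2 1, 2 and 3, and RVE8 was at 0.783, 0.607 and 0.785 CPM. CCA1 and LHY were thus highest in hsl2 3, where PRR9 was lowest, whereas in wild type all 3 genes were highest in wild type 2 and lowest in wild type 3. The library hsl2 1, which had the highest green tissue sum, was the highest hsl2 library for 8 of the 10 genes, against 40.1% of all genes tested. Wild type 3, with the highest root hair sum of wild type, was the lowest wild type library for 8 of the 10, against 38.6%. The mean log2 deviation of the 10 genes from their 6-library means was -0.20, -0.78 and -0.71 in hsl2 1, 2 and 3, against 0.57, 1.01 and 0.10 in wild type 1, 2 and 3. The means of hsl2 1 and wild type 3 are the nearest to each other across the genotypes, and without both the differences of GI, PRR9, PRR7, PRR5, LNK1, LNK2, LNK3 and LNK4 were larger. Leaving out the highest hsl2 mean and the lowest wild type mean widens the difference of any gene that follows these means. Nothing is therefore read from the larger differences of these genes. Those of PRR3 and TOC1 stayed between -0.38 and -0.12 over all settings.

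**Figure D3:**
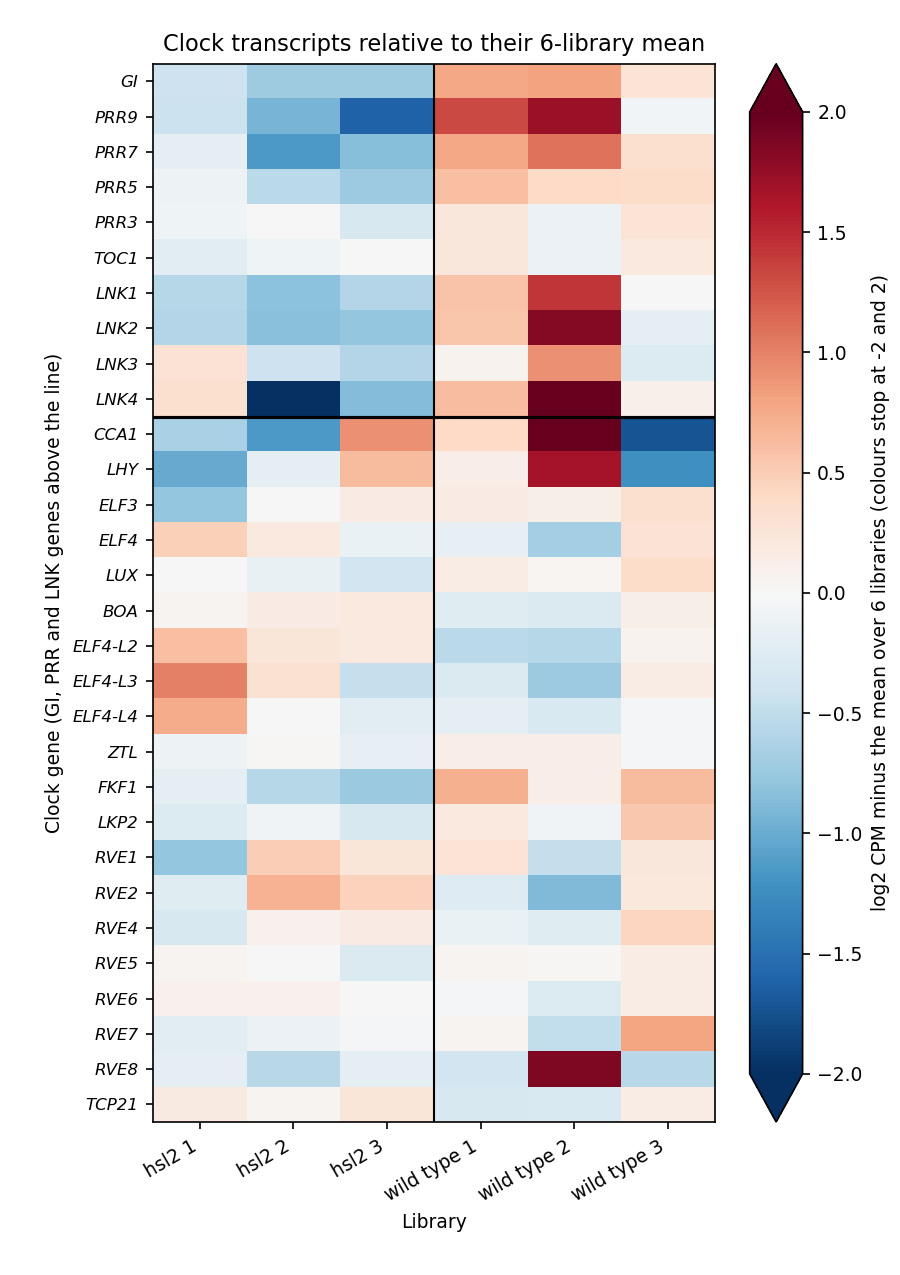
log2 CPM of the 10 genes (above the line) and of the 20 other core clock genes tested (below it), each minus its mean over the 6 libraries, with hsl2 libraries at left and wild type at right; red is above and blue below the mean. Wild type 2 is dark red for PRR9, LNK2, LNK4, CCA1, LHY and RVE8, and blue for ELF4, RVE1, RVE2 and RVE7.

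The other core clock genes lay on both sides of wild type in hsl2. Of 22 listed, 20 entered the fit, 11 lower and 9 higher, and the median was -0.10 on the log2 scale. For this and the lists below, the background is 1081 lower and 1355 higher of 17989 genes with an unadjusted edgeR p under 0.05. DESeq2 called 1.62% of all genes tested. Of the other core clock genes none passed the edgeR test over all genes, 4 had an unadjusted p under 0.05 (3 lower and 1 higher), and DESeq2 called 1. That gene was FKF1 (AT1G68050), the blue-light F-box protein that acts with GI, at 8.54, 6.52 and 5.76 CPM in hsl2, against 15.9, 10.6 and 14.9 CPM in wild type. Its mean was 6.94 ± 1.44 CPM in hsl2 and 13.8 ± 2.83 CPM in wild type (SD, n = 3 each), without overlap. The edgeR adjusted p was 0.166, and that of DESeq2 0.00769. LUX of the evening complex was at 46.9 ± 6.17 CPM in hsl2 and 60.3 ± 7.25 CPM in wild type, and LKP2, a relative of FKF1, at 10.9 ± 1.05 and 15.04 ± 3.16 CPM in hsl2 and wild type (SD, n = 3 each). ELF4-L2 had the opposite direction, at 20.6 ± 3.23 CPM in hsl2 and 12.9 ± 3.39 CPM in wild type. CCA1 and LHY, the targets of PRR repression, had log2 fold changes of -1.12 and -0.69, with standard errors of 0.87 and 0.68 (adjusted p = 0.570 and 0.656, edgeR), so their direction is not resolved.

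**Figure D4:**
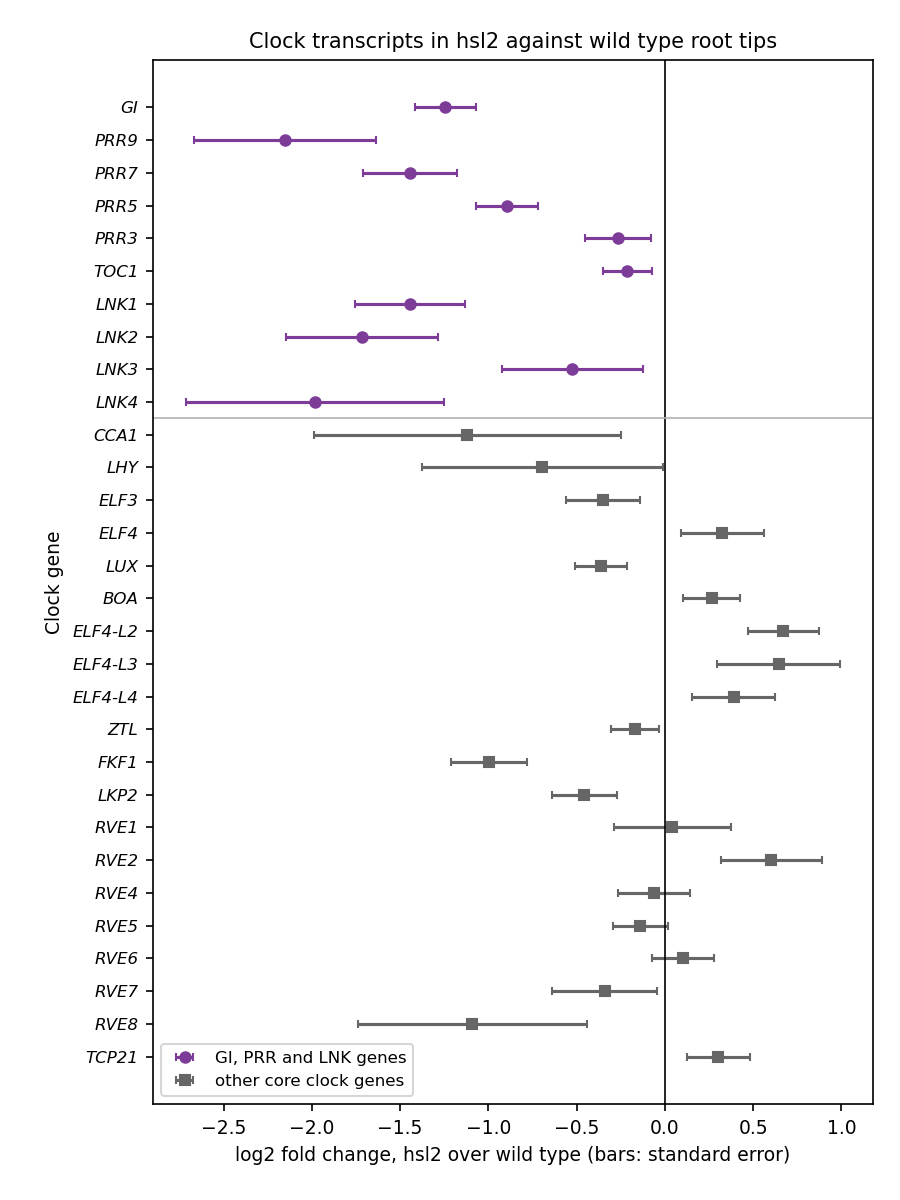
Fitted log2 fold change of hsl2 over wild type with its standard error for the 10 genes (purple circles) and the 20 other core clock genes tested (grey squares). All 10 fold changes are below 0, from -2.15 for PRR9 to -0.21 for TOC1, while the other core genes lie on both sides of 0.

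Genes that feed into the clock came next. Of 14 modulators and partners of clock proteins, all tested, 0 passed with edgeR or DESeq2, 2 lower and 1 higher had an unadjusted edgeR p under 0.05, and the median log2 fold change was -0.11 with 10 lower and 4 higher. TIC, a regulator of LHY, was at 146.6 ± 37.2 CPM in hsl2 and 208.1 ± 8.75 CPM in wild type. Its hsl2 libraries 1, 2 and 3 were at 103.7, 167.2 and 168.9 CPM, so hsl2 1 carried much of the difference. PRMT5 and SPY had log2 fold changes of -0.33 and -0.31, and the casein kinase subunit gene CKB4 had 0.35. PRMT5 and SPY were also lowest in hsl2 1, and CKB4 was highest there. Of 7 light inputs 0 passed with edgeR or DESeq2, and 1 had an unadjusted edgeR p under 0.05. Their median was -0.22, with 6 lower and 1 higher. The higher one was HY5, a light-signalling bZIP factor, at 67.5 ± 8.61 CPM in hsl2 and 47.4 ± 12.5 CPM in wild type (SD, n = 3 each), with overlapping libraries. CRY1, FAR1 and PHYA had log2 fold changes of -0.29, -0.25 and -0.22.

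Sugar and energy genes were set beside PRR7, since sugar signals are known to reach the clock through that gene. Of 8 listed, 7 entered the fit, 5 lower and 2 higher, and their median was -0.22 on the log2 scale. None passed with edgeR, 2 lower genes had an unadjusted p under 0.05, and DESeq2 called DIN10 (AT5G20250), a dark-inducible raffinose synthase family gene. DIN10 was at 85.3, 108.5 and 80.9 CPM in hsl2, against 322.6, 187.2 and 403.04 CPM in wild type, a log2 fold change of -1.73 (edgeR adjusted p = 0.114, DESeq2 adjusted p = 1.62e-08). The asparagine synthase gene DIN6 was at 0.854, 1.37 and 0.393 CPM in hsl2, against 5.51, 0.984 and 26.2 CPM in wild type. BZIP63, the bZIP factor that binds the PRR7 promoter, was at 37.3 ± 4.86 CPM in hsl2 and 49.6 ± 16.3 CPM in wild type (SD, n = 3 each). Of the wild type libraries, DIN10 and DIN6 were lowest in wild type 2, where PRR7 was highest. DIN2, which failed the filter, was also lowest there. DIN1 was instead lowest in wild type 1, at 0.344 CPM against 0.492 CPM in wild type 2. Between genotypes, DIN10, DIN6 and PRR7 were all lower on average in hsl2. A link of these genes to PRR7 was not tested. KIN11 had a log2 fold change of -0.22.

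Among 20 listed outputs and targets, 11 passed the filter, with a median log2 fold change of -0.16, 8 lower and 3 higher, and 0 passed with edgeR or DESeq2. Without adjustment 3 lower genes had an edgeR p under 0.05. No read of the flowering gene FT was counted, a limit of 0.148 to 0.213 CPM by library. COL1 had 3, 6 and 4 counts in hsl2, against 20, 17 and 16 counts in wild type, without overlap (log2 fold change -1.90, edgeR adjusted p = 0.176). CDF3, of the CDF factors that FKF1 and GI remove, was at 2.28, 0.910 and 1.57 CPM in hsl2, against 4.92, 6.21 and 2.003 CPM in wild type. CAT2 and CAT3, both catalase genes, had log2 fold changes of -0.33 and -0.32. The clock-controlled RNA-binding gene GRP7 was abundant and overlapped between genotypes, at 4137 ± 1180.1 CPM in hsl2 and 3554 ± 844.1 CPM in wild type (SD, n = 3 each).

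The 10 genes did not all share 1 pattern over the libraries. As a description over 6 libraries that share 2 genotypes, the log2 CPM of PRR7, GI, PRR9, LNK1 and LNK2 had a Pearson r of 0.98, 0.96, 0.95, 0.95 and 0.93 with the mean of the other 9. PRR5, LNK4 and LNK3 had r of 0.88, 0.88 and 0.80, and PRR3 and TOC1 had r of 0.33 and 0.22. GI, PRR9, PRR7, PRR5, LNK1 and LNK2 were chosen knowing that they were lower in hsl2. High r values among them follow in part from that choice. The 5 other genes most like the mean of the 10 had the highest r among 14212 genes with a mean of at least 5 CPM. So wide a search over 6 libraries yields high r values, and they were not tested. The 5 genes were SR1 (AT5G01820), LIL3:2 (AT5G47110), AT4G39570, SERK1 (AT1G71830) and Toc90 (AT5G20300), with r between 0.986 and 0.993. Their log2 fold changes lay between -0.60 for LIL3:2 and -0.13 for SERK1, within a range that TOC1, PRR3 and LNK3 share. LIL3:2, a light-harvesting-like protein gene, was at 21.9 ± 3.19 CPM in hsl2 and 33.2 ± 4.93 CPM in wild type (SD, n = 3 each), and SERK1, a co-receptor kinase gene, at 35.4 ± 0.875 and 38.6 ± 1.91 CPM in hsl2 and wild type.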

How the data were processed

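The authors deposited raw counts of reads per gene, 1 file per library, neither normalized nor pooled. Per the submitters' processing notes they used Trimmomatic 0.33, STAR 2.5.1b and featureCounts. The sources used here give no genome build, annotation or strand setting. Stranded TruSeq libraries were made, per the labels' protocols. Genotypes were taken from sample titles. The members and gene lists were chosen with earlier results of these data known. All genes were fitted with edgeR 4.0.16 in R 4.3.3 (filterByExpr, TMM, quasi-likelihood F-test, genotype as the only term, 4 residual degrees of freedom), with Benjamini-Hochberg adjustment over 17989 genes and a threshold of 0.05. A standard error is the log2 fold change over the root of its F. The fits were also run on simulated counts in which no library stands apart, which does not test them on these libraries. Gene lengths and promoter windows came from the RefSeq annotation of TAIR10.1. Named were all 10 members, up to 4 genes with the smallest p per list, CCA1 and LHY, and the 5 genes most like the members. Genes named for the order of the wild type libraries (RVE8, COR27 and others), GRP7 and FT were chosen after their values were seen. Alternatives were RLE and upper-quartile scaling, no filter, at least 1 CPM in 3 samples, each library left out, hsl2 1 and wild type 3 left out together, DESeq2 1.42.0, limma-voom (limma 3.58.1) and a block for replicate number. P-values set the genotype difference against the spread between these libraries, which may be technical.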

Additional observations from a re-analysis of the deposited data

How the results depend on the processing

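Over 14 alternative settings the fitted log2 fold change kept its sign for all 10 genes (13 settings for LNK4, which failed the filter at 1 CPM), and the median of the 10 stayed within the spread between libraries. The count of genes past the threshold, 0 with edgeR, was 110 with no filter, 292 with DESeq2, 1311 without hsl2 1 and wild type 3 together, and 52 with the replicate number as a replicate block. It was 0 to 55 with single libraries left out, the highest without wild type 3. Same-numbered libraries were not paired by the labels, so the numbers were not used as pairs in the main fit. Their deviations from the genotype means correlated by 0.13, 0.05 and 0.03. By this measure hsl2 1 and hsl2 3 were closest to the wild type library of the same number. The exception was hsl2 2, at 0.066 with wild type 3 and 0.051 with wild type 2. These weak correlations do not decide whether the libraries were paired. Of the other core clock genes, 1 passed with no filter and with DESeq2 (FKF1 in both), and 3 without hsl2 1 and wild type 3 together (FKF1 lower, ELF4-L2 and RVE2 higher). That setting also called CDF3, DIN10 and HY5, with log2 fold changes of -2.19, -1.43 and 0.68. The block called DIN10, leaving out wild type 2 called DIN10, and no filter called DIN6 and DIN10. The cause was not tested. Depth limits PRR9, LNK3 and LNK4, which had 2 to 59 counts in a library.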
